A study of Mus musculus with 31 samples.

Results

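Whole tumours grown in the pleural cavity of mice, around the lungs, were compared with whole tumours of the same cell line grown in the peritoneal cavity of the abdomen. The comparison holds 11 of the 31 libraries of the series, 6 pleural (mice 1, 2, 3, 4, 5 and 7 of the site) and 5 peritoneal (mice 1, 2, 3, 4 and 7), chosen by the site that the labels give. Numbers are those of the mice in the titles, and peritoneal 2, 3 and 4 carry the numbers 3, 4 and 5 in the deposited table. All 11 tumours came from AB1-mCherry, a murine mesothelioma line labelled with a red fluorescent protein, of which the brightest cells had been sorted and cultured before use. The hosts were untreated female BALB/c mice aged 12 weeks, and the tumours were taken at day 10. Each tumour is thus a graft of 1 cultured line, not a tumour that arose in the host's mesothelium. Subcutaneous whole tumours (n = 5) from the same kind of host were in the same fit and are given as a reference. Cancer cells isolated by their mCherry signal and lack of CD45 (n = 5 pleural, n = 5 peritoneal) are set beside the whole tumours for genes named here. Sorted subcutaneous cells were in their fit and are given for some genes.

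Both cavities are lined by mesothelium, a sheet of flat cells that holds keratins together with mesenchymal proteins and handles retinoids. Resident macrophages of the cavities depend on retinoic acid for their identity, and the peritoneal cavity and omentum hold B cells, plasma cells and mast cells. Ccn1 and Ccn2 encode secreted matricellular proteins of the CCN family. Both genes are classical targets of YAP, a coactivator that binds DNA through TEAD factors, and respond to cell stretch, serum and TGF-beta.

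Expression is given as TPM, a transcript's share of all transcripts scaled to a fixed sum, with mean ± SD. A difference (log2FC) is the pleural minus the peritoneal mean of log2(TPM + 1), a scale that understates the change of genes near or below 1 TPM. A gene was called when its p, adjusted by the Benjamini-Hochberg method over all 15054 tested genes, was below 0.05. Read numbers are not recoverable from TPM, so the depth behind each value is unknown. In bulk tissue, fewer cells of a type and less RNA per cell cannot be told apart.

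Promoter sequences (250 bases before to 50 after a start site) were looked up for the 8 called genes and for Ccn1 and Krt8, and 6 of these 10 genes matched, Bcl6 with 2 start sites. Windows of 3 genes with higher means in pleural tumours are shown because the genes belong to different kinds of inducible gene. The windows are from RefSeq on GRCm38.p6, 5′ to 3′ on the gene's strand, and capitals mark the motifs found. They are Ccn1 (chr3:145649936-145650235, minus strand), the downstream start of Bcl6 (chr16:23981234-23981533, minus strand) and Plk2 (chr13:110394794-110395093, plus strand).
Ccn1: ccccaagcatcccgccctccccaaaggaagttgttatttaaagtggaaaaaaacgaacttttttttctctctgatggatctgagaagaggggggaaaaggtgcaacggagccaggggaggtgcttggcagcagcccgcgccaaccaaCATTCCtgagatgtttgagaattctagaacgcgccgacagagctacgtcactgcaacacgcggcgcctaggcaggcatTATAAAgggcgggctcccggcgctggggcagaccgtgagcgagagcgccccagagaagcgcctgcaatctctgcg
Bcl6: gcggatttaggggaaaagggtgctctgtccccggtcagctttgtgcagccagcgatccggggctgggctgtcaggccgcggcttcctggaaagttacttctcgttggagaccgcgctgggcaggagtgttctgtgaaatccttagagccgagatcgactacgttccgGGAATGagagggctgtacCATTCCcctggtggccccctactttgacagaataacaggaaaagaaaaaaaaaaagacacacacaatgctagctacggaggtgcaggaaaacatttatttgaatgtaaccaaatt
Plk2: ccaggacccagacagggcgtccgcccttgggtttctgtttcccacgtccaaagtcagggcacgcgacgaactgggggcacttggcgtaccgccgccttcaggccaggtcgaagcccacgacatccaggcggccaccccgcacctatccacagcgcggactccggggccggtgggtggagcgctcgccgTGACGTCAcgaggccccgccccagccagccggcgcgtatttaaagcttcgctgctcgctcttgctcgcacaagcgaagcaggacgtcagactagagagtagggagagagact

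The window of Ccn1 held the TEAD motif GGAATG on the opposite strand, starting 103 bases before the start site, and a TATA motif (TATAAA) 25 bases before it. That of Bcl6 held GGAATG on each strand, 83 and 65 bases before the start, while the window at its upstream start held none of the motifs searched. The Plk2 window held the cyclic AMP response element TGACGTCA 62 bases before the start. On either strand, GGAATG was present in 14.7% of 32851 promoter windows of this length, TATAAA in 13.6% and TGACGTCA in 1.79%. The AP-1 motif TGANTCA (7.81% of windows) and the CArG box (1.63%) were searched too and had no match in these 3 windows. Among the matched genes not shown, the windows of Cnfn and F2rl3 held none of the motifs searched, and that of Krt8 held only the TATA motif. No promoter was in the reference table for Ccn2, Ccl11, Dynlt2a1 and Gm7329.

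Between 14224 and 14880 genes reached 1 TPM in each of the 11 libraries, and 4.1 to 6.45% of TPM came from the mitochondrial genome. Correlations of log2(TPM + 1) were 0.965 to 0.987 between pleural tumours, 0.977 to 0.985 between peritoneal tumours and 0.960 to 0.987 across the sites, so pairs across the sites were about as alike as pairs within one. Single libraries stood apart by marker RNA of muscle, gut epithelium, blood or B cells, and its origin was not tested. Pleural 3 held 6193 TPM summed over 12 cardiac muscle genes, against 5.43 to 21.7 TPM in the other 10, and pleural 3 and 5 held 632 and 932 TPM of 21 skeletal muscle genes, against 16.6 to 23.5. Peritoneal 4 held 144 TPM of 12 gut epithelium genes, against 2.04 to 7.34. Peritoneal 7 held 5494 TPM of haemoglobin and erythroid genes, against 183 to 1259, and 227 TPM of B cell genes, against 30.3 to 137. Results that rest on these libraries are given with and without them.

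**Figure D1:**
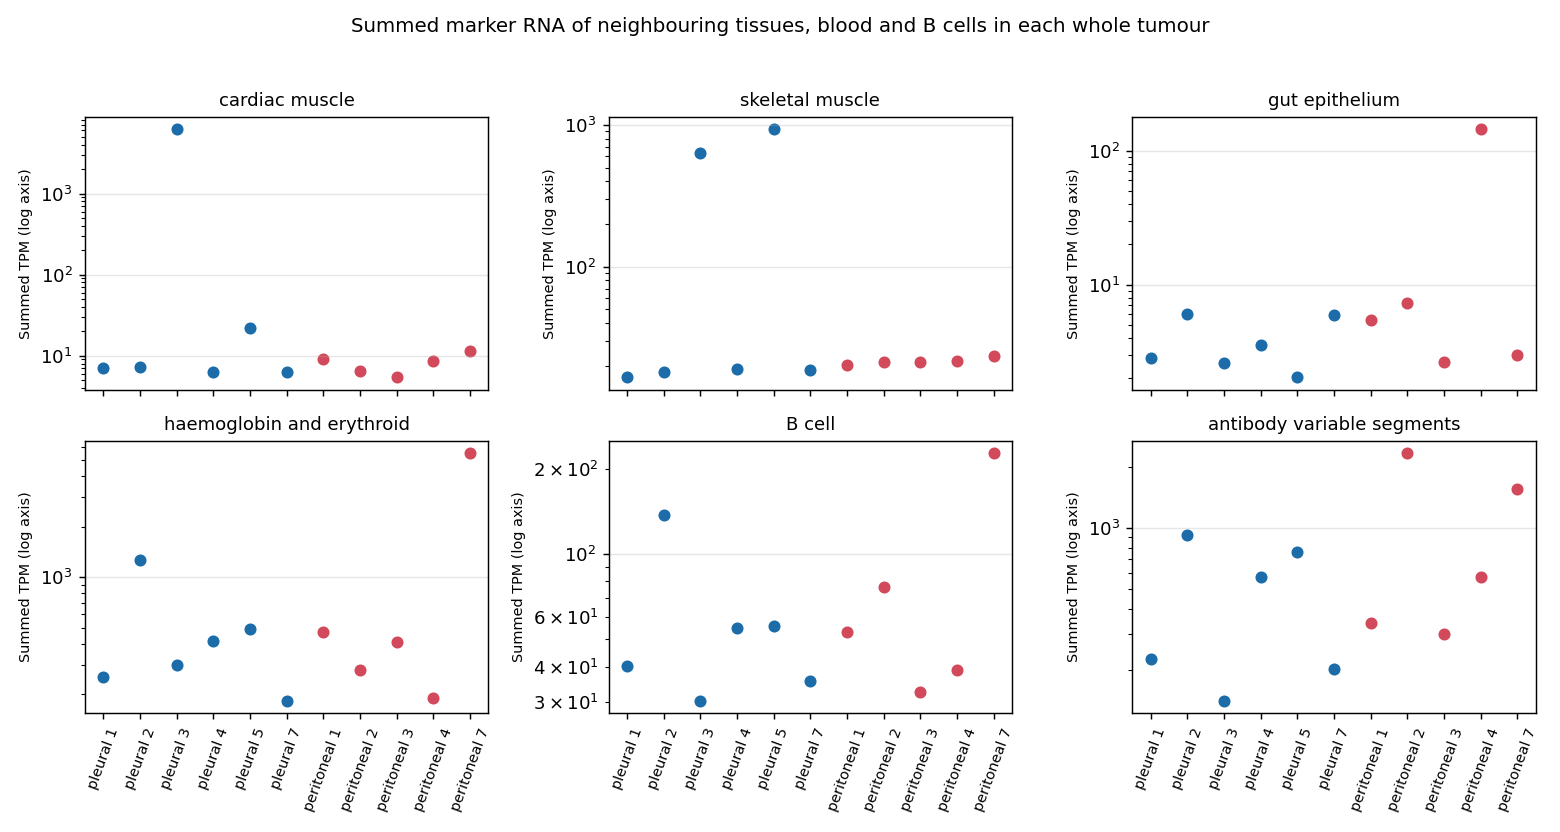
Summed TPM on a log axis for marker lists of neighbouring tissues, blood and B cells in each of the 6 pleural (blue) and 5 peritoneal (red) whole tumours, 1 point per library. Pleural 3 stands apart in cardiac muscle at 6193 TPM, pleural 3 and 5 in skeletal muscle, peritoneal 4 in gut epithelium at 144 TPM and peritoneal 7 in haemoglobin at 5494 TPM.

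The series is about the effect of tumour location on a mesothelioma's surroundings, and this pair of sites sets one serosal cavity against another. Each whole-tumour library has its own mouse number, so p-values measure the spread between mice. Of 15054 genes, 8 were called (0.0531%), 4 higher and 4 lower in pleural tumours (0.0266% each). At an unadjusted p below 0.05 there were 741 genes higher (4.92%) and 932 lower (6.19%). These shares over all genes are the background for the list counts at such a p given below. The groups did not overlap for 70 genes with every pleural tumour above (0.465%) and 101 with every pleural tumour below (0.671%). The median log2FC over all genes was 0.00, and 51% of genes had a positive one. Differences of at least 2-fold on the log2(TPM + 1) scale were seen in 42 genes on the pleural side, 7 of them muscle genes, and in 62 on the peritoneal side, 19 of them antibody genes. In sorted cells from the same sites 1231 of 12357 genes were called (9.96%), 550 higher (4.45%) and 681 lower (5.51%) in pleural cells, against 1079 and 853 under median-of-ratios scaling and 502 and 1261 with library weights. The sites did not overlap for 9.57% of genes in sorted cells.

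Ccn2, the connective tissue growth factor gene, rose in pleural tumours. It ranged from 112 TPM over a median of 127 to 184 TPM in the pleural libraries, and measured 74.8, 66, 65.7, 82.3 and 76.6 TPM in the peritoneal ones, so that the lowest pleural value lay above the highest peritoneal value. The means were 137 ± 27.7 TPM (n = 6) and 73.1 ± 7.14 TPM (n = 5), a log2FC of 0.88 (SE 0.15, adjusted p = 0.0455). Subcutaneous tumours had 90.8 ± 23.6 TPM. Sorted pleural cells also had more Ccn2, 298 ± 254 against 69.3 ± 13.9 TPM (log2FC 1.76, adjusted p = 0.0128), with the highest of the 5 sorted pleural libraries at 736 TPM.

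Bcl6, a transcriptional repressor best known from germinal centre B cells, also rose. Pleural values ran from 16.6 through a median of 18.6 to 20.5 TPM, and the peritoneal tumours gave 12.3, 10.2, 13.5, 11.7 and 13.2 TPM. The groups did not overlap, and the log2FC was 0.57 (SE 0.09, adjusted p = 0.0455). Subcutaneous tumours lay between the others at 15.5 ± 2.3 TPM. In sorted cells Bcl6 measured 18.4 ± 5.48 against 10.5 ± 3.23 TPM (log2FC 0.76, adjusted p = 0.0246), although single libraries of the sites overlapped there.

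Plk2, a serum-inducible polo-like kinase, had a smaller rise with little spread. The pleural libraries lay between 41 and 45.8 TPM (median 44.4) and the peritoneal ones at 35.4, 32.5, 33.9, 35.5 and 32.2 TPM. This gave a log2FC of 0.36 (SE 0.06, adjusted p = 0.0455), and subcutaneous tumours, at 47.9 ± 5.28 TPM, were nearer to the pleural ones. Sorted cells differed more, with 107 ± 45 against 42.4 ± 8.55 TPM (log2FC 1.26, adjusted p = 0.0117) and no overlap.

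Ccl11, which encodes the eosinophil attractant eotaxin, fell in pleural tumours. It measured 2.87 to 7.76 TPM (median 4.66) there and 13.8, 12, 10.9, 15.9 and 15.6 TPM in peritoneal tumours, again without overlap. The log2FC was -1.40 (SE 0.21, adjusted p = 0.0435), and the subcutaneous mean was higher than both at 40.7 ± 10.8 TPM. Sorted cells held 0.347 ± 0.199 and 1.16 ± 1.17 TPM (log2FC -0.53, adjusted p = 0.305), levels near the floor of that table.

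The other 4 called genes fall outside the rule for named genes, by level or by name, and are given because the count is small. F2rl3, the thrombin receptor PAR4 of platelets, fell to 0.396 ± 0.151 from 1.31 ± 0.309 TPM (log2FC -0.72, adjusted p = 0.0435). Cnfn, the cornified envelope gene cornifelin, fell to 0.209 ± 0.255 from 1.96 ± 1.15 TPM (log2FC -1.25, adjusted p = 0.0435), with peritoneal 2 highest at 3.98 TPM and pleural 1 and 3 listed at 0. The predicted gene Gm7329 was listed at 0 in 5 of 6 pleural tumours and reached 2.83 TPM in pleural 1, against 5.1 to 20.7 TPM in peritoneal tumours (log2FC -2.98, adjusted p = 0.0455). In sorted cells Gm7329 measured 13.5 ± 5.72 and 11.8 ± 6.24 TPM (log2FC 0.28, adjusted p = 0.82).

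Dynlt2a1, a dynein light chain gene, measured 1.57 ± 0.382 against 0.271 ± 0.383 TPM (log2FC 1.05, adjusted p = 0.0455), and 3 peritoneal libraries were listed at 0. Dynlt2a2 and Dynlt2a3 are closely related copies, between which reads can be split. Summed over the 3 copies the sites had 7.71 ± 1.45 and 8.3 ± 0.798 TPM, which overlapped (exact two-sided permutation p = 0.424). Fam177a2 showed the same kind of difference in a gene that was not called, with 7.49 ± 3.59 against 0.282 ± 0.463 TPM (log2FC 2.69, adjusted p = 0.0813). Its copy Fam177a measured 7.51 ± 3.29 against 14.8 ± 0.463 TPM, and the sum of the pair was 15 ± 0.986 and 15 ± 0.78 TPM (exact two-sided permutation p = 0.931). For Fam177a2 and its copy the split differed between the sites while the summed means were both 15 TPM, and Dynlt2a1 and Fam177a2 are both uncertain as site differences.

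**Figure D2:**
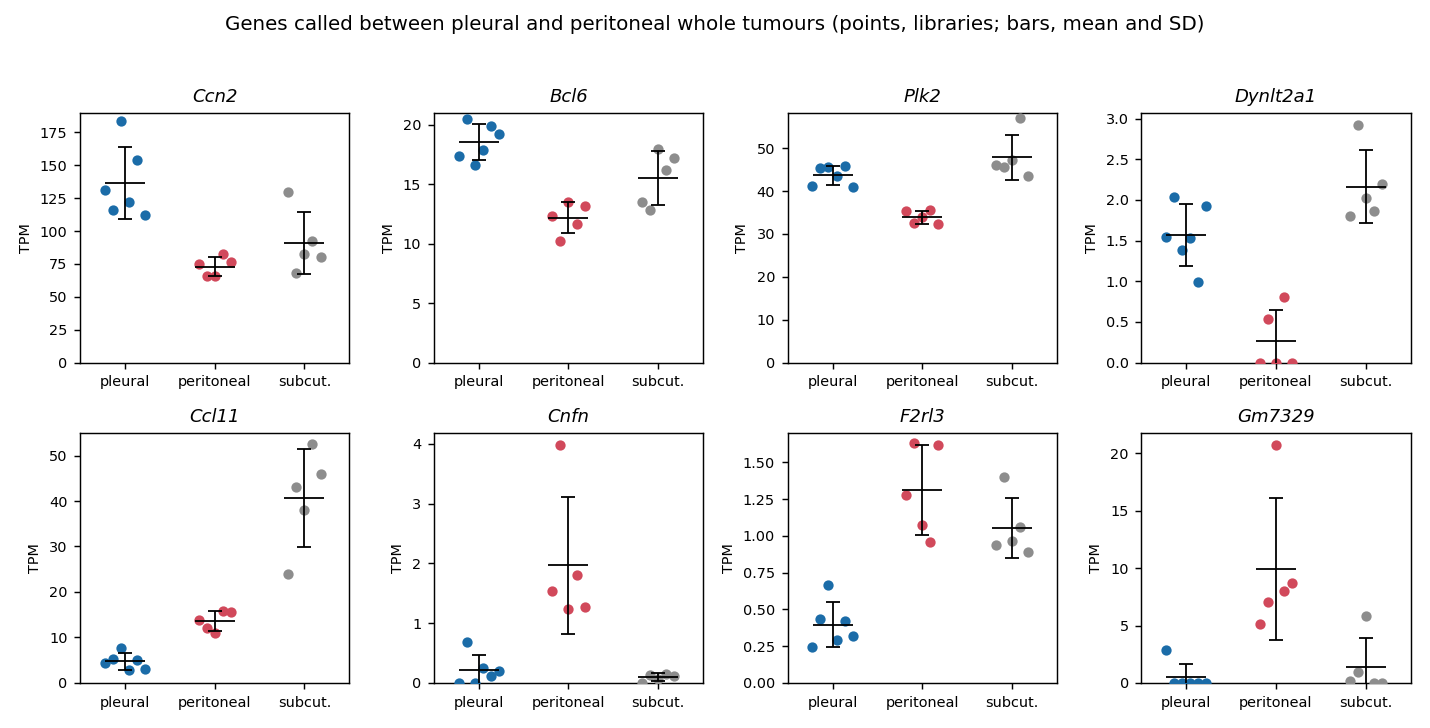
TPM of the 8 called genes in each whole tumour by site (points are libraries, black bars the mean and SD, with bars cut at 0). The pleural and peritoneal points do not overlap in any panel, and the subcutaneous points lie near the pleural ones for Plk2 and above both for Ccl11.

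All 8 calls lay just under the threshold, at adjusted p of 0.0435 to 0.0455. Each kept its direction in every alternative in which it was tested, and each was called in 6 (Gm7329) to 13 (Ccl11 and F2rl3) of them. Left out singly, pleural 3 gave 33 called genes, the 8 included, and pleural 7 gave 10. Subcutaneous 1 or 2 gave 6, peritoneal 4 gave 4, subcutaneous 4 gave 3, and pleural 1, pleural 2 or subcutaneous 3 gave 1. Pleural 4 or 5, peritoneal 1, 2, 3 or 7, or subcutaneous 5 gave 0.

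Ccn2 belongs to a list of 18 genes that respond to YAP or TGF-beta, of which 17 had a positive log2FC. Ccn2 was the only one called, 7 had an unadjusted p below 0.05 and 4 did not overlap (Ccn1, Ccn2, Ankrd1 and Ajuba). Over all genes the shares in the pleural direction were 4.92% at such a p and 0.465% without overlap. The list's median log2FC was 0.19, against 0.00 for all genes. Summed over the list, the median was 1147 TPM in pleural, 934 TPM in peritoneal and 1176 TPM in subcutaneous tumours, so subcutaneous tumours were near the pleural ones. In sorted cells 6 of the 18 were called higher and none lower, with a median of 0.72, against 4.45% and 5.51% of all genes.

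Ccn1, the CCN relative whose promoter is shown above, ranged from 62.8 over a median of 91.1 to 109 TPM in pleural tumours. The peritoneal values were 56.3, 44.3, 43.1, 60.4 and 62.5 TPM, all below the lowest pleural one and the highest of them close to it. Its log2FC was 0.77 (SE 0.14, adjusted p = 0.0813), and it measured 1028 ± 200 against 607 ± 110 TPM in sorted cells (log2FC 0.75, adjusted p = 0.143). Ankrd1, a YAP target that heart muscle also makes, ranged from 58.6 over a median of 69.2 to 480 TPM against 50.7, 41.4, 45.8, 55 and 45.8 TPM. The value of 480 TPM is that of pleural 3, the library with cardiac RNA. Without it the log2FC went from 0.95 (adjusted p = 0.399) to 0.48 (adjusted p = 0.058). Ajuba, a LIM protein that restrains the Hippo kinases, measured 34 ± 2.22 against 29.6 ± 1.86 TPM (log2FC 0.19, adjusted p = 0.211).

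Among the TGF-beta members, Skil, a feedback inhibitor of SMAD signalling, had a log2FC of 0.27 (adjusted p = 0.329) in whole tumours and 1.74 (adjusted p = 0.0103) in sorted cells. Tgfbi, a matrix protein induced by TGF-beta, had log2FCs of opposite sign in the tables, 0.46 (adjusted p = 0.317) and -0.60 (adjusted p = 0.35). Fhl2, a LIM protein of actin fibres outside the list, measured 41.7 ± 3.56 against 31.1 ± 3.67 TPM without overlap (log2FC 0.42, adjusted p = 0.0936) and rose in sorted cells (log2FC 0.68, adjusted p = 0.00475). Without both pleural 3 and 5, 13 of the 18 list members had a positive log2FC, 5 were higher and 1 lower at an unadjusted p below 0.05, and Ccn2 had an adjusted p of 0.0621 (log2FC 0.71).

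Genes induced quickly by growth factors mostly had higher means in pleural than in peritoneal whole tumours, and differed more in sorted cells. Of 24 immediate early transcription factors 19 had a positive log2FC, with 6 higher and 1 lower at an unadjusted p below 0.05 (median 0.15). Over all genes 4.92% were higher and 6.19% lower at such a p. In sorted cells 13 were called higher and none lower (median 1.06), against 4.45% and 5.51% of all genes. Of 16 feedback genes of MAP kinase signalling 14 were positive and 4 had an unadjusted p below 0.05 (median 0.15). In sorted cells 7 of 15 tested were called higher. Neither list had a member called in whole tumours. The summed immediate early list had medians of 986 TPM in pleural, 880 TPM in peritoneal and 988 TPM in subcutaneous tumours. For the MAP kinase list they were 681, 606 and 598 TPM. With single libraries left out the number higher at an unadjusted p below 0.05 ran from 2 to 10 for the first and 3 to 9 for the second, both highest without pleural 3.

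Lif, an interleukin-6 family cytokine, measured 12.1 to 18.6 TPM (median 16.5) in pleural tumours against 11.7, 10.4, 11.6, 11.4 and 10.7 TPM. The lowest pleural value, in pleural 3, was just above the highest peritoneal one. Its log2FC was 0.47 (SE 0.09, adjusted p = 0.0936), and 0.54 with an adjusted p of 0.013 when pleural 3 was left out. Hbegf, a ligand of the EGF receptor, had 44.8 ± 9.96 against 31.5 ± 6.77 TPM (log2FC 0.48, adjusted p = 0.337), with pleural 3 lowest at 24.7 TPM, and 0.64 (adjusted p = 0.0524) without that library. Leaving out the lowest pleural library raises the pleural mean of Lif and Hbegf by construction. Both were higher in sorted pleural than in sorted peritoneal cells, Lif by a log2FC of 1.82 (adjusted p = 0.0218) and Hbegf by 1.26 (adjusted p = 0.00114). Lif measured 71.2 ± 48.9 TPM in sorted pleural, 17.8 ± 9.74 TPM in sorted peritoneal and 39.7 ± 19.2 TPM in sorted subcutaneous cells. For Hbegf these values were 96.6 ± 23.3, 39.5 ± 6.41 and 93.9 ± 19.8 TPM. Sorted subcutaneous 1 and 2 held 12.9 and 7.48 TPM of Ptprc, the CD45 gene, against 0.228 to 2.05 TPM in the other sorted libraries. The part of leukocyte RNA in the sorted subcutaneous means given here was not tested. Among the 33 genes called without pleural 3, chosen here after their values were seen, were also Ereg, another EGF receptor ligand (log2FC 0.74, adjusted p = 0.0336), and Dusp5, a phosphatase that turns off ERK (log2FC 0.47, adjusted p = 0.013). With all libraries Ereg and Dusp5 had log2FCs of 0.54 and 0.31 and adjusted p of 0.348 and 0.446.

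Nr4a1, an orphan nuclear receptor among the immediate early genes, had 12.1 ± 1.87 against 9.09 ± 0.85 TPM (log2FC 0.36, adjusted p = 0.299), and Myc had 96.6 ± 11.3 against 84.3 ± 2.49 TPM (log2FC 0.19, adjusted p = 0.333). In sorted cells both were higher in pleural than in peritoneal libraries, by log2FCs of 1.16 (adjusted p = 0.0301) and 1.06 (adjusted p = 0.0325). Their sorted levels were 614 ± 119 against 287 ± 128 TPM for Nr4a1 and 105 ± 55.8 against 45.6 ± 7.36 TPM for Myc. Sorted subcutaneous cells had 619 ± 248 TPM of Nr4a1 and 95.8 ± 31.7 TPM of Myc, near the pleural values. Nr4a1 thus stood far higher in sorted cells of both sites than in whole tumours, in tables normalized separately, and the part of cell sorting in these values was not tested. Sgk1, a kinase induced by serum and glucocorticoids, differed mostly in sorted cells. Its log2FC was 0.45 (adjusted p = 0.316) in whole tumours, at 20.4 ± 4.51 against 14.6 ± 3.09 TPM. In sorted cells it was 2.97 (adjusted p = 0.00323), at 101 ± 59.8 against 11.5 ± 6.37 TPM. Sorted subcutaneous cells had 92.3 ± 54.8 TPM of Sgk1, near the pleural value. The difference between the tables was not tested, since they were normalized separately.

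Of 16 circadian clock genes 14 had a positive log2FC and 6 an unadjusted p below 0.05, with none called (median 0.16). Per1, a repressor of the clock that also responds to glucocorticoids, lay between 7.66 and 22.2 TPM (median 12.7) in pleural tumours and at 7.07, 7.58, 6.62, 6.61 and 7.48 TPM in peritoneal ones. The peritoneal values were tightly grouped, the pleural ones widely spread, and the groups did not overlap (log2FC 0.78, SE 0.20, adjusted p = 0.194). In sorted cells Per1 rose from 9.72 ± 4.04 to 33.9 ± 14.1 TPM (log2FC 1.66, adjusted p = 0.011). Sorted subcutaneous cells had 12.6 ± 4.9 TPM, near the peritoneal value. Nr1d1, encoding the clock repressor REV-ERB alpha, had log2FCs of 0.44 (adjusted p = 0.218) and 0.93 (adjusted p = 0.0411). The hour of tissue collection is not in the labels, and its part in these values was not tested. Of 20 cholesterol synthesis genes 17 were positive and 2 had an unadjusted p below 0.05 (median 0.15, and 1 to 10 such genes with single libraries left out). In sorted cells 12 were called higher and 1 lower, against 4.45% and 5.51% of all genes.

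**Figure D3:**
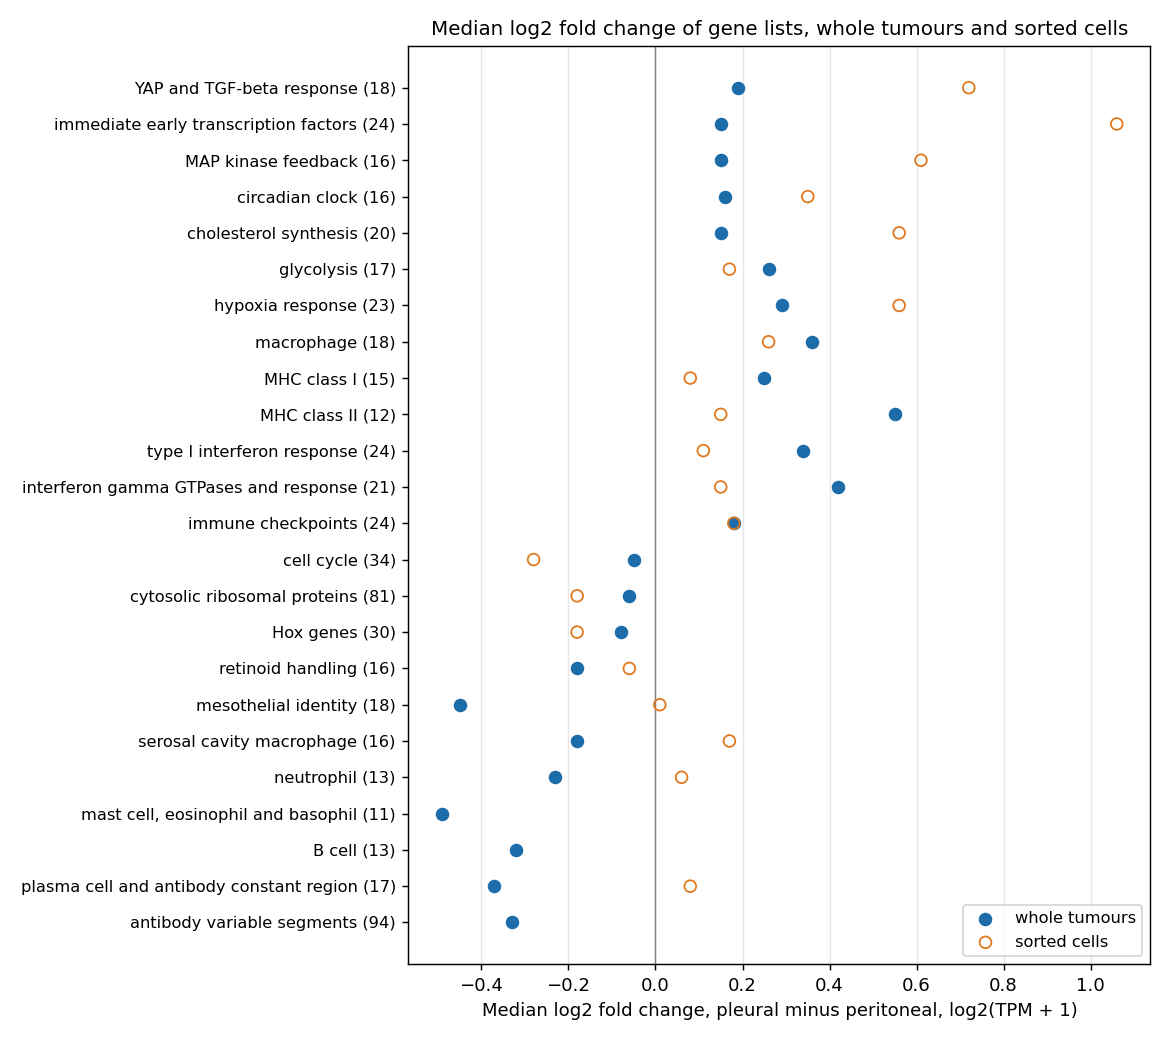
Median log2FC of 24 gene lists, pleural minus peritoneal, in whole tumours (filled) and in sorted cells (open, where at least 3 members were tested), with the number of members tested in whole tumours in brackets. The whole-tumour medians run from -0.49 for mast cell, eosinophil and basophil genes to 0.55 for MHC class II, and the immediate early list is at 0.15 in whole tumours and 1.06 in sorted cells.

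Mesothelial genes mostly had lower means in pleural tumours, though none was called. Of 18 tested genes of mesothelial identity 16 had a negative log2FC, 9 lower and 1 higher with an unadjusted p below 0.05, and the median was -0.45. In sorted cells 7 were tested and 2 called lower, against 5.51% of all genes, and the median was 0.01. Over all libraries the summed list gave 501 to 731 TPM in pleural, 640 to 847 TPM in peritoneal and 510 to 568 TPM in subcutaneous tumours. Both defining markers of mesothelium that were looked at were present in every whole tumour. Msln, mesothelin, measured 235 ± 49.7 and 186 ± 21 TPM (log2FC 0.31, 95% interval 0.04 to 0.59, adjusted p = 0.39), and Wt1, the Wilms tumour transcription factor of mesothelium, 3.47 ± 1.28 and 3.85 ± 0.428 TPM (log2FC -0.16, interval -0.51 to 0.20, adjusted p = 0.753).

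Keratins of simple epithelia were among its members furthest from 0. Krt8 ranged from 0.835 over a median of 3.35 to 15.3 TPM in pleural tumours and measured 26.8, 38.5, 17.3, 39.5 and 18.1 TPM in peritoneal ones. Pleural 7 was the highest of its group and still below every peritoneal tumour. The log2FC was -2.53 (SE 0.50, adjusted p = 0.0936), and subcutaneous tumours had 5.85 ± 2.58 TPM. Krt8 fell in sorted cells as well, from 31.2 ± 2.63 to 10.9 ± 8.82 TPM (log2FC -1.87, adjusted p = 0.0259). Sorted subcutaneous cells had 39.9 ± 15 TPM of Krt8. Sorted pleural cells were uneven in it, with 1.86 and 2.55 TPM in 2 libraries and 22.1 TPM in another.

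Krt18, the usual partner of Krt8, was far lower, at 1.23 ± 0.743 against 4.52 ± 5.9 TPM (log2FC -0.92, adjusted p = 0.398). The peritoneal mean rests on peritoneal 4, at 15 TPM with the others at 1.34 to 2.51 TPM, and the log2FC without it was -0.42 (adjusted p = 0.42). Krt19 had 1.92 ± 1.5 against 10.1 ± 11 TPM (log2FC -1.66, adjusted p = 0.194) and a log2FC of -1.19 without peritoneal 4, the library with gut epithelial RNA. Krt7 measured 1.11 ± 0.483 against 2.24 ± 0.971 TPM (log2FC -0.60, adjusted p = 0.291). Slpi, a protease inhibitor made by mesothelium and mucosa, had 6.8 to 48.8 TPM (median 18.7) against 33, 60.5, 48.9, 49.2 and 37.2 TPM (log2FC -1.20, adjusted p = 0.311), with pleural 2 and 7 inside the peritoneal range. Upk3b, a uroplakin of mesothelium, had 1.1 ± 0.811 and 1.92 ± 0.938 TPM (log2FC -0.49, adjusted p = 0.446) and was at or near 0 in every subcutaneous tumour.

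Retinoid genes showed a similar tilt. Of 16 tested, 13 had a negative log2FC and 6 an unadjusted p below 0.05, with a median of -0.18 and no call. In sorted cells 2 of 13 were called lower and none higher (median -0.06), against 5.51% and 4.45% of all genes. The summed list was highest in subcutaneous tumours, with medians of 491 TPM in pleural, 613 TPM in peritoneal and 780 TPM in subcutaneous ones. Aldh1a2, the enzyme that makes retinoic acid and which is shared with the mesothelial list, measured 8.01 to 32 TPM (median 14.4) in pleural tumours against 40.9, 37.5, 28.8, 27.6 and 34.6 TPM (log2FC -1.15, adjusted p = 0.259). Pleural 3 alone reached into the peritoneal range. Stra6, the cell surface receptor for the retinol carrier, had 13.5 ± 4.95 against 28.6 ± 8.6 TPM (log2FC -1.07, adjusted p = 0.165), and subcutaneous tumours only 3.28 ± 0.478 TPM.

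Dhrs3, a reductase that returns retinal to retinol and a known retinoic acid target, was the retinoid gene with the smallest p. It measured 30.5 to 52.2 TPM (median 40.6) against 57.8, 98.5, 71.8, 52.1 and 81.1 TPM, with pleural 2 level with peritoneal 4 (log2FC -0.79, SE 0.17, adjusted p = 0.127). In sorted cells it fell from 66.6 ± 8.66 to 24.5 ± 9.63 TPM without overlap (log2FC -1.48, adjusted p = 0.00272). Rarb, a retinoic acid receptor and target, had 15.1 ± 4.33 against 21.8 ± 1.94 TPM (log2FC -0.53, adjusted p = 0.236), but 17.3 ± 3.11 and 18.6 ± 5.66 TPM in sorted cells (log2FC -0.07, interval -0.47 to 0.33). Of 30 Hox genes 25 had a negative log2FC, with a median of -0.08, 4 with an unadjusted p below 0.05 (0 to 6 with single libraries left out) and none called.

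**Figure D4:**
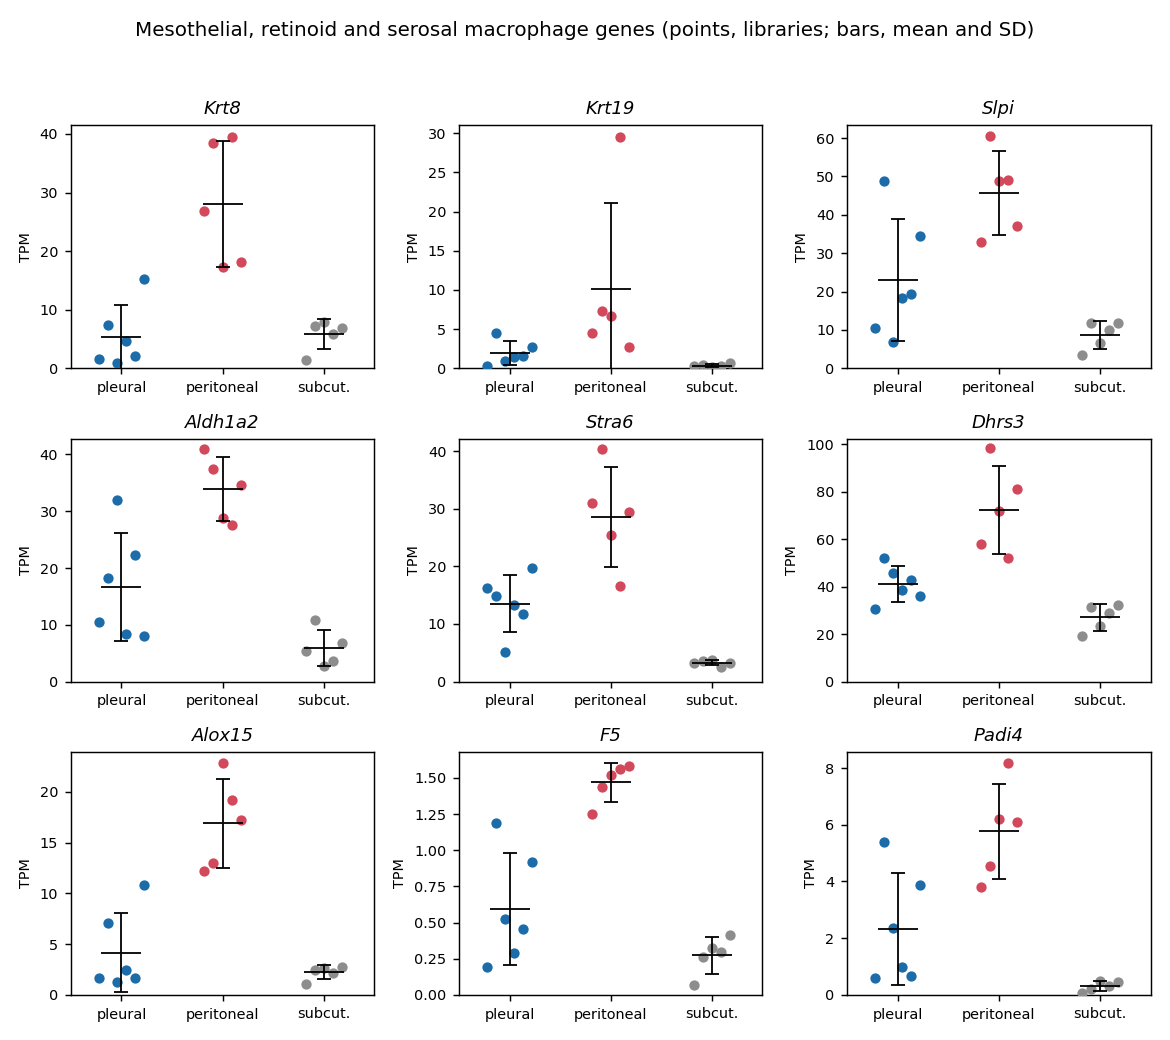
TPM of 3 mesothelial genes (upper row), 3 retinoid genes (middle row) and 3 genes of cavity macrophages (lower row) in each whole tumour by site (points are libraries, bars the mean and SD, cut at 0). Peritoneal tumours have the highest mean in every panel, and the groups do not overlap for Krt8, Alox15 and F5.

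Of 18 general macrophage genes 16 had a positive log2FC and 9 an unadjusted p below 0.05 in the pleural direction, with a median of 0.36 and no call. Ms4a7, a surface protein of tissue macrophages, measured 91.5 ± 24.1 against 61.5 ± 13.5 TPM (log2FC 0.56, adjusted p = 0.269), and the complement subunit C1qb 471 ± 141 against 329 ± 90.2 TPM (log2FC 0.51, adjusted p = 0.366). Both were higher still in subcutaneous tumours, at 177 ± 23.9 and 532 ± 66.9 TPM. With single libraries left out the number of macrophage genes with an unadjusted p below 0.05 ranged from 1 to 10. The pan-leukocyte gene Ptprc (CD45) had 52.6 ± 13.5 and 41 ± 11.8 TPM (log2FC 0.36, interval -0.06 to 0.77, adjusted p = 0.521).

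Of 16 genes of resident cavity macrophages 11 were negative and 6 lower at an unadjusted p below 0.05, with a median of -0.18. Their summed level did not follow these signs, at 126 to 331 TPM (median 244) in pleural and 174 to 234 TPM (median 187) in peritoneal tumours, and Cxcl13 was the most abundant member. Alox15, a lipoxygenase of resident peritoneal macrophages and eosinophils, measured 1.29 to 10.8 TPM (median 2.06) in pleural tumours and 12.2, 13, 22.8, 19.2 and 17.2 TPM in peritoneal ones. Pleural 2 and 7, at 7.12 and 10.8 TPM, stood above the other pleural tumours and below all peritoneal ones. Its log2FC was -2.06 (SE 0.37, adjusted p = 0.079), and subcutaneous tumours had 2.24 ± 0.674 TPM. F5, coagulation factor V, which cavity macrophages make, had 0.594 ± 0.384 against 1.47 ± 0.136 TPM without overlap (log2FC -0.66, adjusted p = 0.126). Padi4, a histone deiminase of neutrophils and some macrophages, had 2.31 ± 1.97 against 5.77 ± 1.69 TPM (log2FC -1.20, adjusted p = 0.202).

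Not every cavity macrophage gene followed. Gata6, the transcription factor that defines these cells, measured 3.7 ± 1.05 and 3.86 ± 0.493 TPM (log2FC -0.07, interval -0.35 to 0.21, adjusted p = 0.868). Sorted cancer cells held Gata6 too, and there it rose, at 2.86 ± 0.353 against 1.86 ± 0.502 TPM (log2FC 0.45, adjusted p = 0.0497). Cxcl13, a B cell attractant made by cavity macrophages, had 130 ± 68.6 against 70.3 ± 20 TPM (log2FC 0.72, interval -0.02 to 1.45, adjusted p = 0.457), with pleural values from 48.6 to 218 TPM.

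Mast cell, eosinophil and basophil genes were lower in 10 of 11 cases by log2FC, 5 with an unadjusted p below 0.05 and a median of -0.49. Ccr3, the eotaxin receptor of eosinophils, measured 0.969 to 2.46 TPM (median 1.56) against 2.6, 2.49, 2.78, 3.1 and 2.9 TPM, just without overlap (log2FC -0.51, adjusted p = 0.165). Like its ligand gene Ccl11 it had its lowest mean in pleural tumours, with 2.03 ± 0.278 TPM in subcutaneous ones. The mast cell protease genes Mcpt4 (5.77 ± 1.65 against 10.7 ± 2.45 TPM, log2FC -0.80, adjusted p = 0.203) and Tpsb2 (18.8 ± 4.56 against 30.4 ± 5.47 TPM, log2FC -0.68, adjusted p = 0.209) were both lowest in pleural and highest in subcutaneous tumours.

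Retnlg, a resistin-like product of neutrophils, had 1.35 to 5.83 TPM (median 2.23) against 15, 13.5, 10.2, 9.13 and 15.5 TPM (log2FC -1.89, SE 0.38, adjusted p = 0.0936). The groups were well separated, yet only 1 of 13 tested neutrophil genes had an unadjusted p below 0.05, and the list's median was -0.23. Of 31 chemokine genes Ccl11 alone was called, 4 had an unadjusted p below 0.05 in the pleural and 7 in the peritoneal direction. Cxcl16, a chemokine of macrophages, measured 83.5 ± 17 against 56.8 ± 14.7 TPM (log2FC 0.56, adjusted p = 0.269). Pf4, encoding the chemokine platelet factor 4, measured 12.4 ± 4.69 against 23.8 ± 3.48 TPM, below every peritoneal value in each pleural tumour (log2FC -0.97, adjusted p = 0.309). Which cells held its RNA was not tested.

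Antibody and B cell genes were unevenly spread over the libraries. All 13 tested B cell genes had a negative log2FC (median -0.32), none with an unadjusted p below 0.05. Without peritoneal 7, the library with 227 TPM of B cell RNA, 9 of 11 tested were positive and the median was 0.06. Of 17 plasma cell and antibody constant region genes 16 were negative (median -0.37, and 12 of 17 with a median of -0.29 without peritoneal 7). Of 94 antibody variable segments 73 were negative and 13 had an unadjusted p below 0.05 (median -0.33). Without peritoneal 7 these counts were 44 of 84 and 4 (median -0.04).

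Igkc, the kappa light chain constant region, measured 111 to 764 TPM (median 331) in pleural tumours against 286, 1964, 227, 533 and 1288 TPM (log2FC -1.03, interval -2.35 to 0.28, adjusted p = 0.553). Jchain, which joins antibodies into polymers, had 34.4 ± 22.4 against 79.1 ± 63.9 TPM (log2FC -1.02, interval -2.21 to 0.17, adjusted p = 0.515). The ranges overlapped widely in both genes. Both cavity sites were far above the subcutaneous values of 40.3 ± 19.5 and 3.85 ± 1.85 TPM. Igkv1-88, the variable segment with the smallest p, reached 516 TPM in peritoneal 2 against 1.37 to 46.2 TPM in the other peritoneal tumours, and 19.2 TPM in pleural 2 against 0.462 to 2.65 TPM in the other pleural tumours (log2FC -3.02, adjusted p = 0.299).

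Antigen presentation and interferon genes were positive in most cases with wide spread. Of 15 MHC class I genes 15 had a positive log2FC (median 0.25, 2 with an unadjusted p below 0.05), as had 10 of 12 of class II (median 0.55, 3), 24 of 24 of the type I interferon response (median 0.34, 0) and 19 of 21 of the interferon gamma response (median 0.42, 0). None was called, and with single libraries left out the numbers at an unadjusted p below 0.05 ran from 0 to 6 for class I, 0 to 5 for type I interferon and 0 to 4 for interferon gamma. H2-K1, a class I heavy chain, measured 3293 ± 402 against 2786 ± 424 TPM (log2FC 0.25, adjusted p = 0.399), and the class II protease Ctss 658 ± 174 against 464 ± 128 TPM (log2FC 0.51, adjusted p = 0.337). Peritoneal 2 and 3 were the lowest libraries for Cxcl9, an interferon gamma target, at 18.8 and 32.4 TPM, with the others of both sites at 50.2 to 160 TPM (log2FC 0.77, adjusted p = 0.524). Without pleural 3 and 5 and peritoneal 4 and 7, 10 of the 12 class II genes had an unadjusted p below 0.05 (median 0.90). With single libraries left out the number ran from 0 without peritoneal 2 (median 0.34) to 10 without peritoneal 7 (median 0.76). The set without all 4 libraries was chosen after the data were seen. Peritoneal 4 and 7 had the highest summed class II RNA of their site, 5102 and 7390 TPM. Leaving them out lowers the peritoneal mean by construction. Pleural 5, also left out, was the highest of its site at 10075 TPM.

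Of 24 immune checkpoint genes 19 were positive and 3 had an unadjusted p below 0.05 (median 0.18). Havcr2, encoding TIM-3 on T cells and myeloid cells, had 8.18 to 13.2 TPM (median 9.5) against 6.13, 3.21, 4.71, 7.5 and 6.77 TPM without overlap (log2FC 0.74, SE 0.18, adjusted p = 0.165). Pdcd1, encoding PD-1, had 10.9 ± 2.97 against 7.13 ± 1.6 TPM (log2FC 0.52, adjusted p = 0.399), and pleural 1, at 5.45 TPM, lay inside the peritoneal range. Cd274, the PD-L1 gene, overlapped at 19.4 ± 6.73 and 15.1 ± 6.18 TPM (log2FC 0.36, interval -0.24 to 0.97, adjusted p = 0.652). Ifng did as well, at 3.27 ± 1.08 and 2.65 ± 1.56 TPM (log2FC 0.30, interval -0.28 to 0.88, adjusted p = 0.706).

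Muscle genes were very high in 1 or 2 pleural libraries. All 19 tested skeletal muscle genes and all 3 tested cardiac genes had a positive log2FC, with medians of 0.67 and 0.93 and no unadjusted p below 0.05. Nppa, the atrial natriuretic peptide gene, measured 3376 TPM in pleural 3 and at most 0.255 TPM in the other pleural tumours. Myl4, an atrial myosin light chain, had 727 TPM there and 0.937 to 2.71 TPM in the other 5, and its log2FC went from 1.19 to -0.15 without that library. Acta1, skeletal actin, stood at 248 TPM in pleural 5 and 16.9 TPM in pleural 3, with the other 9 tumours between 0.0906 and 0.323 TPM. Without pleural 3 and 5, the cardiac median was -0.10 and the skeletal one -0.10, and 2 of 13 tested skeletal genes were positive.

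With all libraries the cavities overlapped in the matrix and fat genes named here. Tnc, the matrix glycoprotein tenascin C, had 4.32 ± 2.58 and 6.44 ± 1.54 TPM (log2FC -0.58, interval -1.13 to -0.04, adjusted p = 0.417), against 119 ± 22.5 TPM subcutaneously. Postn, periostin, had 20.7 ± 27.4 and 10.8 ± 1.37 TPM (log2FC 0.18, adjusted p = 0.912), and its sign turned without pleural 3, where it was 75.1 TPM (log2FC -0.32). Thbs4, thrombospondin 4, measured 0.661 to 13.2 TPM (median 1.69) against 6.53, 17.1, 7.73, 21.9 and 18.3 TPM (95% interval of the log2FC -3.06 to -0.95, adjusted p = 0.17), with pleural 5 alone inside the peritoneal range. Pleural 3 and 5, the libraries with muscle RNA, were left out in an alternative chosen after the data were seen. It gave log2FCs of -2.70 (adjusted p = 0.00938) for Thbs4, -0.98 (adjusted p = 0.0407) for Tnc and -0.63 (adjusted p = 0.14) for Postn. These libraries held the highest pleural Thbs4 values, 4.95 and 13.2 TPM, so leaving them out lowers its pleural mean by construction. For Tnc and Postn the log2FC fell too, so these libraries had raised their pleural means on the log2 scale. The adjusted p of Tnc in this alternative is thus not separate evidence of a site difference. Adipoq, adiponectin of fat cells, had 4.01 ± 2.99 and 3.37 ± 1.47 TPM (log2FC -0.03, interval -1.24 to 1.19).

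Of 17 glycolysis genes 16 were positive and 6 had an unadjusted p below 0.05 (median 0.26), and of 23 hypoxia response genes 21 and 4 (median 0.29), with no call in either. With single libraries left out these numbers ran from 3 to 11 (glycolysis) and 2 to 12 (hypoxia), both highest without pleural 1. Ldha, lactate dehydrogenase A, measured 1184 ± 176 against 920 ± 101 TPM (log2FC 0.36, adjusted p = 0.277) and rose in sorted cells (log2FC 0.44, adjusted p = 0.0267). Hk2, a hexokinase, had 24 ± 5.92 against 16.7 ± 3.75 TPM (log2FC 0.49, adjusted p = 0.293). Car9, the hypoxia-induced carbonic anhydrase, ranged from 23.9 to 141 TPM in pleural and from 20.1 to 66.6 TPM in peritoneal tumours (log2FC 0.56, interval -0.42 to 1.55, adjusted p = 0.671).

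Genes of cell division mostly had slightly negative log2FCs. Of 34 cell cycle genes 27 had a negative log2FC and 8 an unadjusted p below 0.05, with a median of -0.05. In sorted cells 14 were called lower and 1 higher (median -0.28), against 5.51% and 4.45% of all genes. Cdc20, an activator of the anaphase-promoting complex, averaged 110 ± 5.39 TPM, against 128 ± 5.98 in peritoneal tumours (log2FC -0.21, SE 0.04, adjusted p = 0.0838). It fell in sorted cells from 123 ± 16.4 to 68.8 ± 7.24 TPM (log2FC -0.82, adjusted p = 0.000774). Aurka, the mitotic kinase Aurora A, had log2FCs of -0.20 (adjusted p = 0.243) and -0.50 (adjusted p = 0.0099). Mki67, present in all cycling cells, measured 97.5 ± 6.43 and 98.9 ± 5.27 TPM (log2FC -0.02, interval -0.17 to 0.13). Of 81 cytosolic ribosomal protein genes 78 were negative with a median of -0.06, 10 with an unadjusted p below 0.05, and with single libraries left out 4 to 34, the highest without pleural 7. Rps2, a small subunit protein, measured 213 to 416 against 454 to 1167 TPM (log2FC -1.33, adjusted p = 0.18), and is uncertain because such genes have near-identical copies in the genome.

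Genes called in sorted cells leaned the same way in whole tumours. Of 11952 genes tested in both tables, 65.7% had the same sign. Of the 1199 genes called in sorted cells and tested in whole tumours, 984 (82.1%) had the same sign, 284 (23.7%) had it with an unadjusted p below 0.05 in whole tumours, and 8 (0.667%) had the opposite sign with such a p. Of the 8 genes called in whole tumours 5 were tested in sorted cells, and Ccn2, Bcl6 and Plk2 were called there in the same direction. The titles give 5 pleural and 4 peritoneal mouse numbers to both a whole tumour and a sorted library, so the tables may share mice and are not independent sets of animals.

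**Figure D5:**
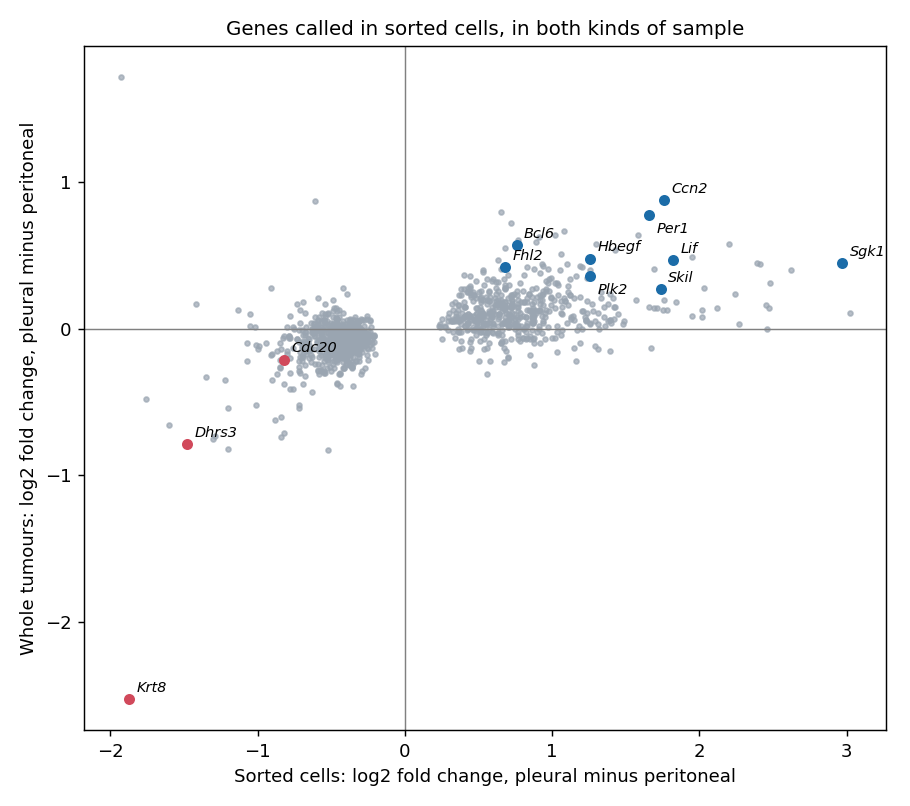
Log2FC, pleural minus peritoneal, in whole tumours against sorted cells for the 1199 genes called in sorted cells and tested in both (grey points), with 12 named genes in blue (higher in sorted pleural cells) or red (lower). Most points lie in the quadrants of shared sign (984 of 1199), and the whole-tumour differences are smaller than the sorted ones for the named genes, such as Sgk1 at 0.45 and 2.97, except Krt8 at -2.53 and -1.87.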

How the data were processed

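Whole-tumour and sorted-cell RNA was sequenced as 50-base single reads, per the labels' protocols. The authors deposited 1 table of TPM values for each kind of sample, made with kallisto on GRCm39, per the submitters' processing notes. The version of kallisto and its transcript annotation were not stated in those sources. TPM keeps no read depth and has the same sum in every library, so a few abundant transcripts lower all others.

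Libraries were grouped by the site in their titles. Log2(TPM + 1) was tested with limma 3.58.1 (R 4.3.3), with all 3 sites in 1 fit per table, a mean-variance trend and Benjamini-Hochberg adjustment over all genes that reached 1 TPM in 5 or more libraries of the table. The tables were never tested against each other. The fit was tested on simulated data with known changes. Sums of near-identical copies were compared by exact permutation. Figures were drawn with matplotlib 3.10.9.

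The comparison, the 58 gene lists and the tests were chosen with earlier results of these data known, so no list is independent evidence. Genes were named by a rule with 4 parts. These were called genes with a mean of 2 TPM or more in the higher site and no predicted-gene name (up to 12 a direction by log2FC), genes next in order of p to make 24, list members with the smallest p (up to 4 for a list with a call, otherwise 2), and a fixed set of marker genes given with 95% intervals. Not every gene that met the rule is printed. Left out of those next in order of p are Fer1l6, Scand1, Tbc1d17, Coa3, Syt8, F2rl1, Acad10, Thap12, Ube2s, Edf1, Gpnmb and Mylk. Many list members that met it, such as Hoxd10 and Nr2f1, are left out too. Ankrd1, Ajuba, Skil, Tgfbi, Krt18, Krt7, Upk3b, Slpi, Rarb, Padi4, Tpsb2, Pf4, Cxcl16 and Nppa were named after their values were seen. Alternatives changed the pseudocount, filter, scaling, threshold, variance model and libraries. Mouse numbers shared by the sites did not pair the libraries. Some items are not reported here. Motifs were searched on both strands of RefSeq promoters (GRCm38.p6).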

Additional observations from a re-analysis of the deposited data

Results flagged for a closer look

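Among 176 groups of values checked for a library far from the others, 13 were marked, and chance alone marks about 1 in 20. Distances were taken on log2(TPM + 1) within the pleural or the peritoneal tumours. Pleural 3 accounted for 4. It was highest for summed cardiac muscle RNA (6193 TPM, next of its group 21.7), Myl4 (727 TPM, next 2.71) and Ankrd1 (480 TPM, next 69.5), and lowest for Hbegf (24.7 TPM, next 47.1). The part of the cardiac RNA in the Ankrd1 value was not tested.

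Peritoneal 4 was highest for summed gut epithelium RNA (144 TPM, next 7.34), Krt18 (15 TPM, next 2.51) and the muscle gene Mb (0.0833 TPM with the others listed at 0), and lowest for Wt1 (3.09 TPM, next 3.94). Peritoneal 7 was highest for summed haemoglobin RNA (5494 TPM, next 473), and peritoneal 2 for Cnfn (3.98 TPM, next 1.8).

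Pleural 1 was highest for Gm7329 (2.83 TPM with the others listed at 0) and lowest for Pdcd1 (5.45 TPM, next 10.1). Pleural 2 was highest for Igkv1-88 (19.2 TPM, next 2.65).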

How the results depend on the processing

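Of 8 called genes, 0 were called at an adjusted p below 0.01, with a pseudocount of 0.1, or with a filter of 5 TPM, and 5 with a robust variance model. Leaving out 1 library gave 0 to 33 calls. Alternatives chosen after seeing the data gave 21 calls without pleural 3 and 5 (9 higher and 12 lower, 4 of the 8 kept) and 29 without pleural 3 and 5 and peritoneal 4 and 7 (8 higher and 21 lower, 3 kept). Without a filter 8 genes were called, 0 higher and 8 lower, of which 2 were among the 8. The mouse numbers did not pair the sites (correlations of -0.38 to 0.21, 1 of 5 best with its own number), and the fit with the replicate block gave 0 calls, and 1160 in the table of sorted cells. By the numbers in the library names, added after seeing the data, 2 of 5 were best with their own number (correlations of -0.38 to 0.21) and the replicate block again gave 0 calls. In sorted cells the 1231 calls became 187 at an adjusted p below 0.01, 1932 with median-of-ratios scaling, 2229 with quantile normalization and 696 with the 2 sites alone, and 528 to 1420 with 1 library left out. For single genes, 2134 recomputed values stayed on the same side of the threshold, 145 lost a call, 28 gained one and none turned a call around. Of 81 genes, 76 kept their sign in every alternative that tested them, Postn and Myl4 being among the exceptions. The causes were not tested. Depth is unknown, so limits on low genes cannot be given.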

Other observations

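A few gene groups outside the comparisons above showed both cavities close together. Of 18 fibroblast genes 9 had a positive and 9 a negative log2FC (median -0.00, none with an unadjusted p below 0.05), and of 15 endothelial genes 7 and 8 (median -0.00, 1 lower with such a p). Of 37 proteasome genes 27 were positive with a median of 0.02. Of 94 nuclear respiratory chain genes 74 were negative with a median of -0.05, 7 lower and 1 higher at an unadjusted p below 0.05, and with single libraries left out the number lower ranged from 4 to 35.

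The 13 genes of the mitochondrial genome differed between the tables. In whole tumours 12 had a positive log2FC with a median of 0.11 and none had an unadjusted p below 0.05. In sorted cells 12 of 13 were called higher in pleural than in peritoneal cells (median 1.14), against 4.45% of all genes. The mitochondrial genome gave 5.13 to 6.37% of TPM in sorted pleural, 2.91 to 4.5% in sorted peritoneal and 5.6 to 6.63% in sorted subcutaneous libraries. The difference between the tables was not tested.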
